A study of Mus musculus with 13 samples.

Results

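The regions described here are bidirectional promoter CpG islands: stretches of DNA rich in the dinucleotide CpG that hold the transcription start sites (TSSs) of 2 or more genes read in opposite directions. They were found among the autosomal regions that the authors' table calls CpG near TSS, as those holding at least 1 plus-strand TSS (the start of a plus-strand gene body) and at least 1 minus-strand TSS (the end of a minus-strand gene body). Of 12896 such islands, 951 (7.37%) met the rule, and all 951 passed the filters on low and extreme values. A further 16 on chromosome X were not used. No measured value entered the choice. They were set against 7926 single-TSS islands, which hold exactly 1 TSS, in the same bands of length.

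The values come from chromatin immunoprecipitation and sequencing (ChIP-seq) of mouse neural stem and progenitor cells, isolated from cortices and ganglionic eminences at embryonic day 14.5 and grown as neurospheres, which are floating colonies, to day 3 of passage 5. The antibodies recognised histone H3 acetylated on lysine 14 (H3K14ac) or KAT7, also called HBO1, an enzyme that acetylates this residue. The Kat7-deleted group (Kat7lox/loxNesCreT/+) had 3 H3K14ac libraries and 1 KAT7 library, the Kat7-intact group (Kat7+/+NesCreT/+) had 4 and 3, and each experiment had 1 IgG library. The design gives 1 animal behind each isolate, and in the deleted group a Cre recombinase transgene driven by regulatory sequence of nestin (Nes) removes Kat7; the intact controls carry the same transgene. The deposited columns are 1 merged value per antibody, and the sources used here do not say which libraries or genotypes entered them, so differences between genotypes, and from IgG, were not analysed here. Of the 12 neural stem and progenitor markers, 6 (Nes, Sox2, Fabp7, Slc1a3, Vim and Olig2) carry the table's Top mark of expression and none its Bottom mark. Over all 20689 genes 1034 are marked Top and 1035 Bottom. Among 5 neuronal markers Map2 is marked Top and 4 carry neither mark. Of 3 endothelial markers Cdh5 is marked Bottom and 2 carry neither mark. All 3 markers of fibroblasts and mesenchyme and all 3 of microglia carry neither mark. No marker of these lists starts in a bidirectional island.

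Opposed gene pairs with closely spaced starts are common in mammalian genomes. Many such pairs code for housekeeping functions such as DNA repair, mitochondrial translation and protein folding, and in others a coding gene is paired with a long non-coding RNA. The DNA just upstream of an active start site is commonly poor in nucleosomes, the particles that carry H3K14ac, and in a head-to-head pair the upstream sides of both genes are the same DNA. Nucleosome occupancy was not measured here.

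In 781 islands the pair lay head to head, with the minus-strand TSS to the left and the genes diverging; in 170 islands the gene bodies overlapped at their starts. Head-to-head TSSs were a median of 149 bases apart (quartiles 80 and 264, at most 1676), and 568 pairs were within 250 bases. Overlapping TSSs were a median of 307 bases apart. Exactly 2 TSSs were held by 944 islands and 3 by the other 7. Both genes were protein-coding in 612 islands, while 269 paired a protein-coding gene with a long non-coding RNA (lncRNA). The bidirectional islands were longer than single-TSS islands, with medians of 847 and 634 bases. Their 1909 genes make up 9.59% of the 19903 autosomal genes of the table. Of these genes 6.97% were marked Top and 0.681% Bottom, against 7.89% and 1.29% of the genes of single-TSS islands; which expression measurements the marks rest on is not stated in the labels or the table.

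The stretches between head-to-head starts are short and rich in G and C. They could be read from the RefSeq promoter windows (build GRCm38.p6, the mm10 assembly) for 472 of the 546 pairs whose TSSs lie 20 to 250 bases apart, with a median of 67.4% G and C. The 6 below run from the base after the minus-strand TSS to the base before the plus-strand TSS. The first 3 belong to textbook pairs: the chaperonin genes Hspd1 and Hspe1, the deSUMOylating enzyme Desi1 with the DNA end-binding protein Xrcc6, and the mitochondrial deacetylase Sirt3 with the proteasome subunit Psmd13. The last 3 were picked for low H3K14ac between the TSSs relative to the flanks, described further on. They were chosen among coding pairs with a readable stretch and are not the 3 lowest of all islands. By the upper bound of that ratio Ciao1/Tmem127 (0.436) ranked before Ndufaf2/Ercc8 (0.459) and is not shown. Its stretch held ETS and SP letters and no CCAAT, while all 3 shown hold CCAAT. Capitals mark matches, on either strand, to CCGGAAG (the core bound by ETS factors), CCAAT (bound by NF-Y) and GGGCGG (bound by SP factors).
Hspd1/Hspe1 (chr1:55087933-55088147, plus strand): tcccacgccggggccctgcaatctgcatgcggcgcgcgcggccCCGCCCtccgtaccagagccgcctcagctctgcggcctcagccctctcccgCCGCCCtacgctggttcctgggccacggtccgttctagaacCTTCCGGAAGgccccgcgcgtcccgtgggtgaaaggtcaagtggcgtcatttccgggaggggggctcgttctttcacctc
Desi1/Xrcc6 (chr15:82016141-82016368, plus strand): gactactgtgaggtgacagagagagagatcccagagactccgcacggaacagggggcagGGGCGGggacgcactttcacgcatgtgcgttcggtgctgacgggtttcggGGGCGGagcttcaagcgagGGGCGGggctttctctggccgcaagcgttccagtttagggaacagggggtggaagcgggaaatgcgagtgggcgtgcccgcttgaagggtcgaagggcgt
Sirt3/Psmd13 (chr7:140882310-140882393, plus strand): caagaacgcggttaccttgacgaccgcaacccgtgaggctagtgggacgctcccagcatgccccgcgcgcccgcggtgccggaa
Gon7/Ubr7 (chr12:102757811-102757974, plus strand): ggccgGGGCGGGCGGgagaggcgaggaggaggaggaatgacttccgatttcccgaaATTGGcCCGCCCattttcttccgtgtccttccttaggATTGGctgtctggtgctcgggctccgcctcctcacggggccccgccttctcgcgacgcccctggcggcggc
Ndufaf2/Ercc8 (chr13:108158626-108158737, plus strand): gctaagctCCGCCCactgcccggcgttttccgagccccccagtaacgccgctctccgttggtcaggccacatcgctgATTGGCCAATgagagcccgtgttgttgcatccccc
Nfkbib/Sirt2 (chr7:28766525-28766751, plus strand): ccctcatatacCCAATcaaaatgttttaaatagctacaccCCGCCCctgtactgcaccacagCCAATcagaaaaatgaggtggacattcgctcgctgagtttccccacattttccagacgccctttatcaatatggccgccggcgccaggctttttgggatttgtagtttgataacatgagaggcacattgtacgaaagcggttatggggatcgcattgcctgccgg

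Hspd1/Hspe1 holds the ETS letters on both strands, overlapping each other, Sirt3/Psmd13 holds none of the 3 motifs, and Ndufaf2/Ercc8 holds CCAAT on both strands side by side. A match is a run of letters, not a site of binding. Over the 472 stretches, 384 held at least 1 of 9 motifs searched, 268 the SP letters, 148 CCAAT and 94 the ETS letters. In the 300-base RefSeq window of each gene (250 bases before its start to 50 after), the ETS letters occurred for 34.3% of 1123 matched genes of head-to-head islands and 17.0% of 223 genes of overlapping islands, against 19.2% of 5535 genes of single-TSS islands and 8.86% of all 32851 RefSeq promoter windows. TATAAA ran the other way, in 2.94% of head-to-head and 4.93% of overlapping genes, against 5.69% of single-TSS genes and 13.6% of all windows. CCAAT was found in 41.1% of head-to-head and 30.9% of overlapping genes, against 37.3% of single-TSS genes and 37.4% of all windows. The windows of a close pair overlap, so a match between the starts can count for both genes. Median G and C was 65.7% in windows of bidirectional islands, 64.0% in those of single-TSS islands and 52.7% in all windows, and the part of base composition in these shares was not tested.

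All levels that follow are RPKM, reads per kilobase of region, scaled to the read total of the merged column (141734087 for H3K14ac and 134111848 for KAT7), and a range in parentheses is a 95% interval. With 1 merged column per antibody there are no replicates, so the intervals cover counting error only, reads are not independent molecules, and no p-value is given. Each bidirectional island held a median of 57 H3K14ac and 54 KAT7 reads, 61550 and 59748 in all. The antibodies share no scale and background reads could not be subtracted. For scale, the gene bodies of single-TSS islands had 0.385 RPKM of H3K14ac and 0.399 RPKM of KAT7, which are not a measured background.

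H3K14ac at bidirectional islands was 1.02 (1.01 to 1.03) times its level at single-TSS islands when the bands of length were weighted by the number of bidirectional islands, with 0.479 against 0.470 RPKM. For KAT7 the ratio was 1.01 (1.00 to 1.02), with 0.496 against 0.492 RPKM. These are averages over bands of length, and the H3K14ac difference changed direction with length. In islands of 1 to 400 bases H3K14ac was 0.933 (0.880 to 0.988) times, and in those of over 400 to 700 bases 0.952 (0.933 to 0.972) times, the single-TSS level. It was 1.04 (1.03 to 1.06) times that level from over 700 to 1200 bases, 1.08 (1.06 to 1.10) from over 1200 to 2000 bases and 1.09 (1.06 to 1.12) above. KAT7 ran from 1.00 to 1.07 times the single-TSS level across the bands, highest in the shortest. In that shortest band the 55 bidirectional islands had 0.459 (0.433 to 0.485) RPKM of H3K14ac and 0.560 (0.531 to 0.591) RPKM of KAT7, against 0.492 and 0.526 RPKM in 1523 single-TSS islands. The ratio of KAT7 to H3K14ac was 0.992 (0.979 to 1.01) times that of single-TSS islands. With head-to-head islands alone the weighted H3K14ac ratio was 0.999 (0.989 to 1.01), an average over bands that still went opposite ways, from 0.874 (0.818 to 0.933) at 1 to 400 bases to 1.07 (1.05 to 1.09) at over 1200 to 2000 bases.

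**Figure D1:**
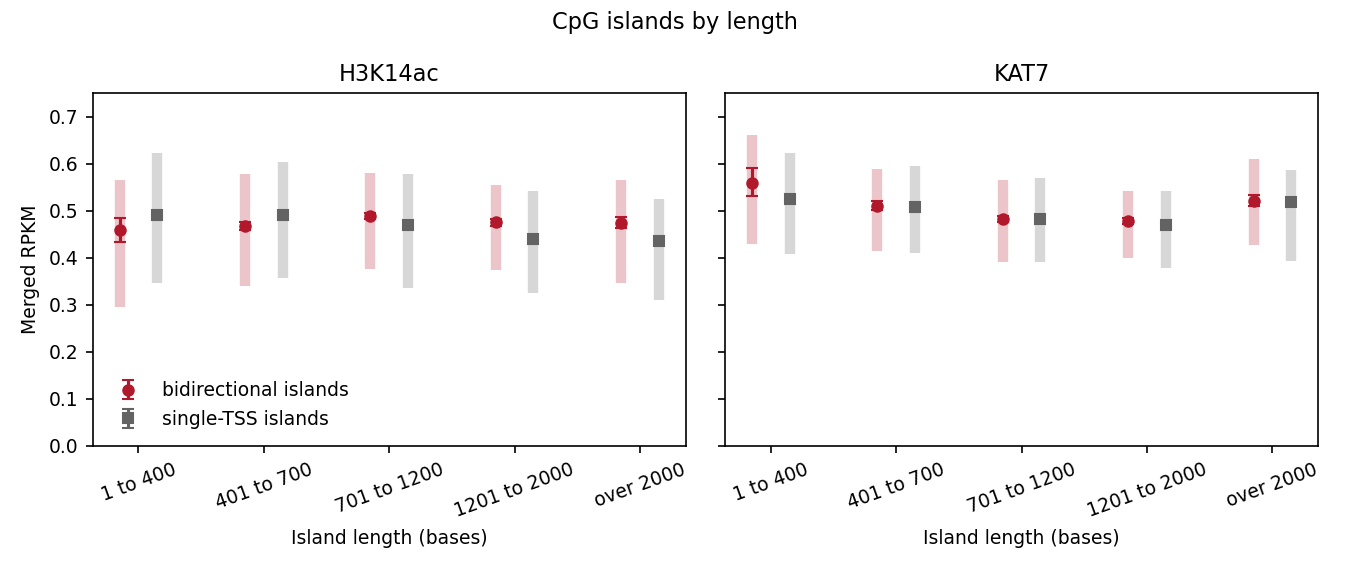
Merged H3K14ac and KAT7 levels (RPKM, y axis) of bidirectional islands (red circles) and single-TSS islands (grey squares) in 5 bands of island length (bases, x axis). Points are summed reads over summed length with the 95% counting interval, and the pale bars run from the lower to the upper quartile of islands. For H3K14ac the red points lie under the grey ones in the 2 shortest bands and above them in the 3 longest.

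The spread among islands was much wider than any of these differences. H3K14ac had quartiles of 0.361 and 0.574 RPKM over the 951 islands around a median of 0.472, and ranged from 0.0784 to 1.31; KAT7 had quartiles of 0.403 and 0.576 around a median of 0.483, and ranged from 0.110 to 1.36. H3K14ac was at least 1.5 times the single-TSS median of its length band in 117 islands (12.3%), where 14.3% of all 12881 islands used passed, and at most that median divided by 1.5 in 133 (14.0%), where 17.3% passed. For KAT7 57 islands (5.99%) were that much higher, where 8.3% of all islands passed, and 78 (8.20%) that much lower, where 10.4% passed. All 4 shares were under those of all islands. These shares were not matched for length, and longer islands hold more reads. The part of length in them was not tested. Fewer of the overlapping islands were low in H3K14ac, 14 of 170 (8.24%), than of the head-to-head ones, 119 of 781 (15.2%). The ratio of KAT7 to H3K14ac had an interval above 1 in 138 bidirectional islands (14.5%, where 14.2% of all islands passed) and below 1 in 87 (9.15%, where 7.43% passed).

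The rule for inclusion has an edge, since a TSS just outside an island does not count. The 278 bidirectional islands with a TSS at most 100 bases inside an edge had median levels of 0.435 RPKM of H3K14ac and 0.492 RPKM of KAT7. The 104 single-TSS islands with an opposed TSS at most 100 bases outside had medians of 0.510 and 0.501 RPKM.

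The levels also differed with the arrangement of the genes. Overlapping islands had 1.10 (1.07 to 1.12) times the H3K14ac and 1.06 (1.03 to 1.08) times the KAT7 of head-to-head islands, 0.516 against 0.470 RPKM and 0.517 against 0.490 RPKM at the lengths of the overlapping islands. The shortest and the longest band hold 9 overlapping islands each, and with the 3 middle bands alone the H3K14ac ratio was 1.06 (1.04 to 1.09) and the KAT7 ratio 1.05 (1.03 to 1.07). Among head-to-head islands both marks were higher where the TSSs lay closer together. Over all lengths, H3K14ac was 0.519 (0.511 to 0.528) RPKM in the 256 islands with TSSs 1 to 100 bases apart, 0.482 at 101 to 200 bases, 0.439 at 201 to 300 bases and 0.429 (0.422 to 0.437) in the 155 islands beyond. KAT7 was 0.528, 0.493, 0.470 and 0.445 RPKM in the same order. Islands with distant TSSs are also longer, but the order held within the band of over 700 to 1200 bases: H3K14ac was 0.531 (0.518 to 0.544) RPKM in 95 islands at 1 to 100 bases and 0.403 (0.390 to 0.417) RPKM in 66 islands beyond 300 bases, a ratio of 1.32 (1.26 to 1.37), and for KAT7 the ratio was 1.22 (1.17 to 1.27). From over 400 to 700 bases the ratios were 1.23 (1.11 to 1.36) and 1.17 (1.06 to 1.29), with 11 islands beyond 300 bases. Neither column was in order in that band. H3K14ac was 0.394 RPKM at 201 to 300 bases and 0.414 RPKM beyond, and KAT7 was 0.431 and 0.477 RPKM. From over 1200 to 2000 bases the ratios were 1.12 (1.07 to 1.18) and 1.13 (1.08 to 1.19) (24 and 58 islands). There H3K14ac was not in order, with 0.449 RPKM at 201 to 300 bases and 0.455 RPKM beyond. Of the promoter letters described above, ETS and CCAAT differed most in this distance. Head-to-head islands with the ETS letters in a matched RefSeq window had TSSs a median of 118.5 bases apart, against 158 bases in those without, and had 1.06 (1.04 to 1.08) times the H3K14ac and 1.05 (1.03 to 1.08) times the KAT7 at equal lengths (252 and 422 islands). Those with CCAAT had TSSs a median of 175.5 bases apart, against 111 bases, and had 0.914 (0.896 to 0.934) times the H3K14ac and 0.907 (0.888 to 0.926) times the KAT7 (300 and 374 islands). The SP letters went with similar distances, medians of 143 and 137 bases, with 0.970 (0.945 to 0.996) times the H3K14ac and 0.946 (0.921 to 0.971) times the KAT7 of islands without them. TATAAA, in 26 islands, went with a median of 160.5 against 140 bases and yet with 1.07 (1.01 to 1.13) times the H3K14ac and 0.941 (0.888 to 0.998) times the KAT7. The part of the TSS distance in these ratios was not tested.

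**Figure D2:**
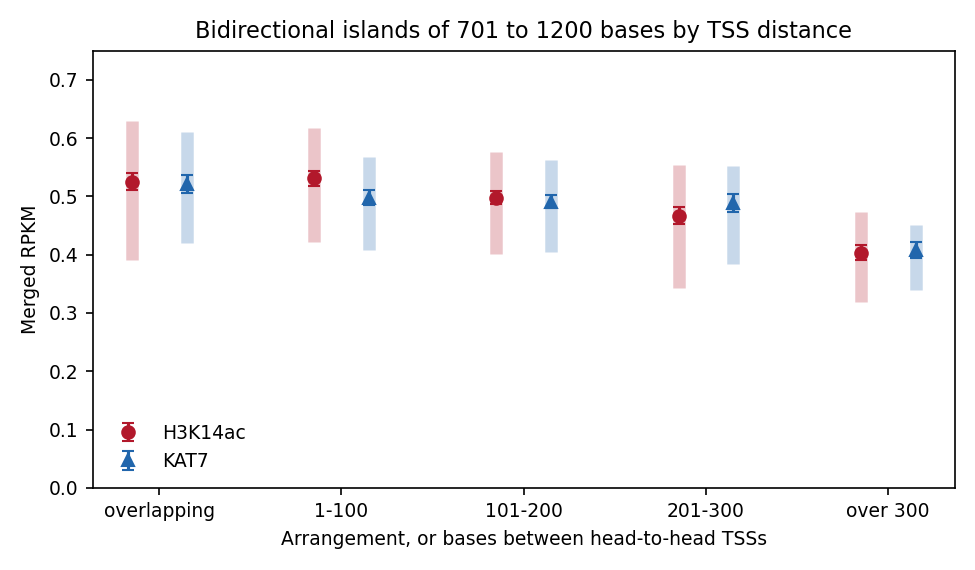
Merged H3K14ac (red circles) and KAT7 (blue triangles) levels (RPKM, y axis) of bidirectional islands of over 700 to 1200 bases, by arrangement and by the number of bases between head-to-head TSSs (x axis). Points are summed reads over summed length with the 95% counting interval, and pale bars are the quartiles of islands. H3K14ac falls in each step from 0.531 RPKM at 1 to 100 bases to 0.403 RPKM beyond 300 bases.

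Around the TSSs of head-to-head islands the reads were low between the 2 start sites and high on either flank. This was seen with short elements of at most 160 bases, which the table calls Enh and IS (IS is not spelled out in the sources used here), each placed by the distance of its middle from the nearest TSS. An element was assigned to the island of that TSS and did not have to lie inside it. Downstream elements lay a median of 426.5 bases from the TSS, so some flanks are outside the island. The part of the island edges in the ratios was not tested. The 196 elements between head-to-head TSSs, in 178 islands, had 0.297 (0.280 to 0.314) RPKM of H3K14ac, against 0.839 (0.819 to 0.859) RPKM in the 457 elements 150 to 1000 bases downstream of either gene's TSS. The ratio was 0.354 (0.332 to 0.377). KAT7 was lower by less, with 0.519 (0.496 to 0.543) against 0.817 (0.797 to 0.837) RPKM, a ratio of 0.635 (0.604 to 0.669). The ratio of KAT7 to H3K14ac was thus 1.75 (1.63 to 1.88) between the TSSs and 0.974 (0.941 to 1.01) downstream. Enh elements made up 108 of the 196 between the TSSs and 58 of the 457 downstream. Taken apart, H3K14ac was 0.258 between and 0.563 RPKM downstream in Enh elements, and 0.350 between and 0.887 RPKM downstream in IS elements.

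The level between the TSSs varied with their distance, while the flanks varied little. With TSSs 1 to 150 bases apart the 64 elements between them had 0.378 (0.345 to 0.413) RPKM of H3K14ac and 0.671 (0.626 to 0.719) RPKM of KAT7. At 151 to 300 bases the 62 elements had 0.238 (0.212 to 0.267) and 0.462 (0.425 to 0.502) RPKM, and beyond 300 bases the 70 elements had 0.275 (0.248 to 0.304) and 0.429 (0.394 to 0.465) RPKM. Downstream, H3K14ac was 0.850, 0.851 and 0.792 RPKM in the same 3 classes, and KAT7 was 0.799, 0.842 and 0.812 RPKM. An element of up to 160 bases can reach over a TSS where the stretch is short.

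A low stretch upstream of the TSS is not particular to bidirectional islands, but it was deeper in H3K14ac between opposed TSSs. At single-TSS islands the 2030 elements 1 to 250 bases upstream had 0.364 (0.358 to 0.370) RPKM of H3K14ac and 0.550 RPKM of KAT7, which were 0.460 and 0.695 times the levels downstream. At equal distances from the nearest TSS, elements between head-to-head TSSs had 0.756 (0.710 to 0.804) times the H3K14ac and 0.908 (0.865 to 0.952) times the KAT7 of single-TSS upstream elements. The match was by distance alone, not by class. Between head-to-head TSSs H3K14ac was 0.258 RPKM in Enh and 0.350 RPKM in IS elements, and the part of class in these ratios was not tested. At 150 to 250 bases from the nearer TSS, the 18 elements between head-to-head TSSs had 0.169 (0.130 to 0.216) RPKM of H3K14ac, against 0.361 (0.349 to 0.373) RPKM in 498 elements that far upstream of a single TSS. Downstream, head-to-head islands were slightly higher than single-TSS islands, by 1.06 (1.03 to 1.09) times in H3K14ac and 1.03 (1.01 to 1.06) times in KAT7. H3K14ac peaked 250 to 400 bases downstream of head-to-head TSSs, at 0.944 (0.903 to 0.986) RPKM, and KAT7 farther in, at 0.851 (0.813 to 0.890) RPKM from 600 to 1000 bases, close to its 0.846 RPKM from 400 to 600 bases.

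**Figure D3:**
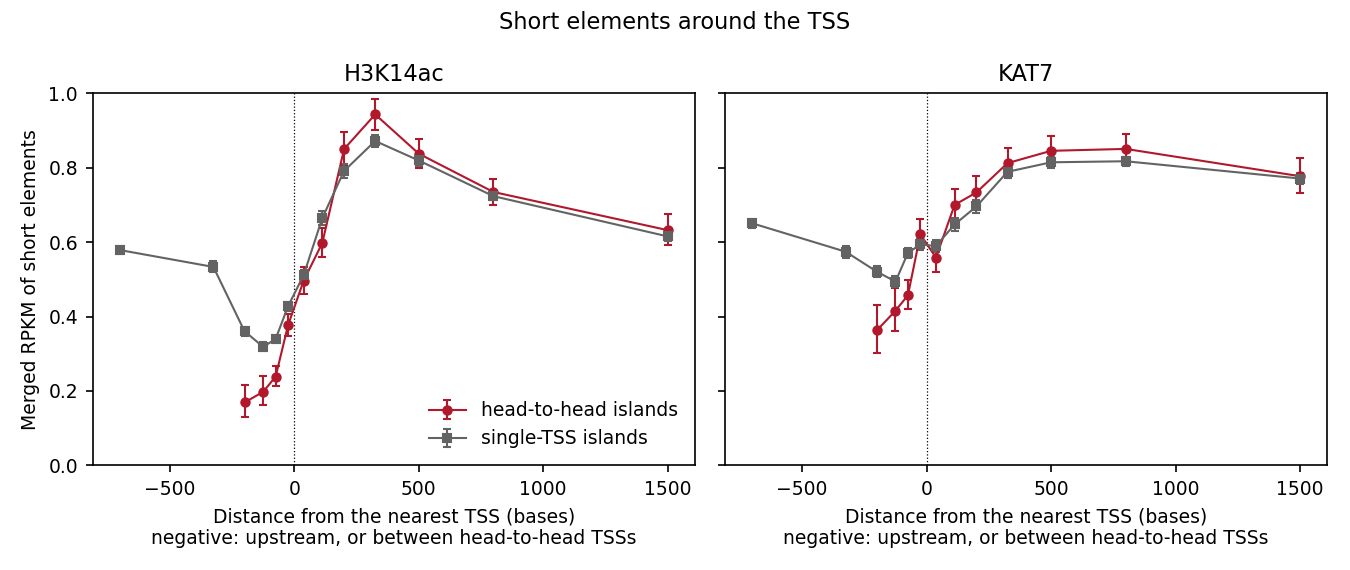
Merged H3K14ac and KAT7 levels (RPKM, y axis) of short elements by distance from the nearest TSS (bases, x axis, drawn at the middle of each bin; negative values are upstream of it, which for head-to-head islands is between the TSSs). Red circles are head-to-head islands, grey squares single-TSS islands, and bars are 95% counting intervals. Upstream, the red H3K14ac points run from 0.377 down to 0.169 RPKM and all lie under the grey ones. Elements count for the island of the nearest TSS and need not lie inside it.

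Where an island had elements assigned to it in both zones, the zones could be compared island by island. The downstream elements could lie outside the island. Of 76 such head-to-head islands, H3K14ac was lower between the TSSs in 65 (85.5%) and KAT7 in 59 (77.6%), and both were in 54; over head-to-head and single-TSS islands together the upstream side was lower in 82.2% for H3K14ac and 71.6% for KAT7. The interval of the H3K14ac ratio lay below 1 in 44 of the 76 (57.9%), against 272 of 622 single-TSS islands (43.7%), where 45.3% of both kinds passed, and above 1 in 3, where 2.01% passed. Median H3K14ac was 0.188 RPKM between and 0.700 RPKM downstream, and median KAT7 was 0.423 RPKM between and 0.779 RPKM downstream. At Gon7/Ubr7, a subunit gene of a tRNA-modifying complex and an E3 ubiquitin ligase gene on chromosome 12, 2 H3K14ac reads lay between the TSSs and 31 downstream, with 0.0934 against 1.99 RPKM, while KAT7 had 8 and 18 reads, 0.395 against 1.22 RPKM. Nfkbib/Sirt2, an inhibitor of NF-kappaB and a cytoplasmic deacetylase on chromosome 7, had 0 and 11 H3K14ac reads, and 0.199 against 0.648 RPKM of KAT7. Ndufaf2/Ercc8, an assembly factor of respiratory complex I and a repair factor on chromosome 13, went apart in the 2 columns: H3K14ac was 0.0941 RPKM between and 0.882 RPKM downstream, but KAT7 was 0.895 RPKM between and 0.186 RPKM downstream. Ccdc115/Imp4, Nab2/1700012D01Rik and Gorasp1/Ttc21a were the 3 islands whose H3K14ac ratio had an interval above 1, named after their values were seen; Gorasp1/Ttc21a, whose TSSs are 48 bases apart, had 1.22 RPKM between and 0.527 RPKM downstream.

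**Figure D4:**
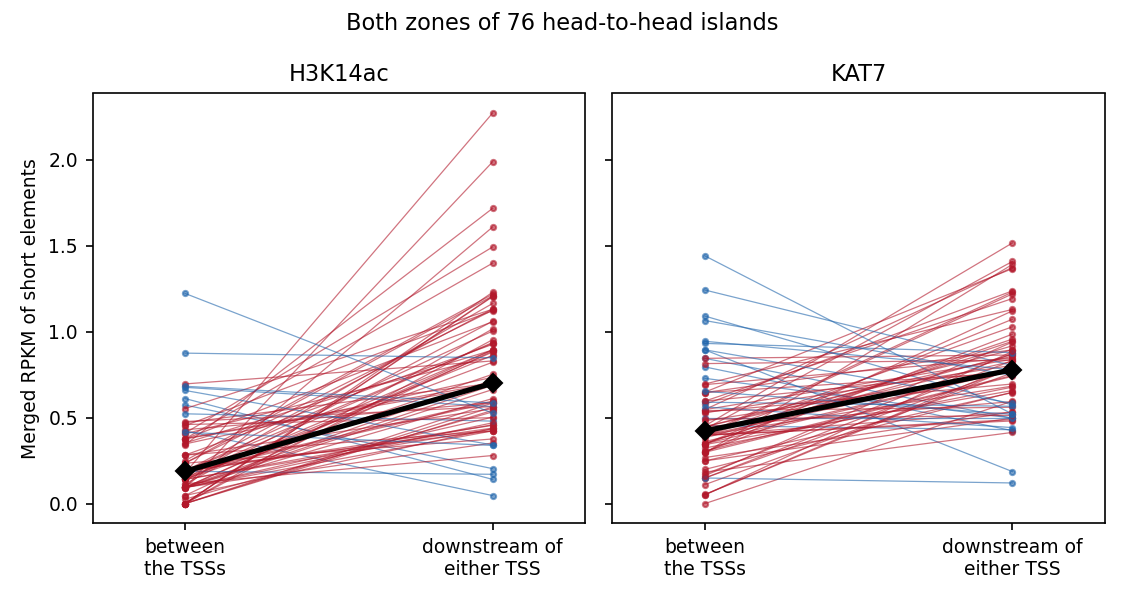
Merged H3K14ac and KAT7 levels (RPKM, y axis) of short elements in the 2 zones (x axis) of 76 head-to-head islands, 1 line per island, red where the level between the TSSs is lower and blue where it is not. Black diamonds join the medians, 0.188 and 0.700 RPKM for H3K14ac and 0.423 and 0.779 RPKM for KAT7. Downstream elements could lie outside the island.

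Islands with overlapping genes had no such low stretch between their TSSs, where the DNA is downstream of both. The 45 elements there had 0.785 (0.727 to 0.846) RPKM of H3K14ac and 0.728 (0.670 to 0.789) RPKM of KAT7, 2.64 (2.40 to 2.91) and 1.40 (1.28 to 1.54) times the levels between head-to-head TSSs. Against elements downstream of a single TSS the ratios were 0.992 (0.918 to 1.07) for H3K14ac and 0.919 (0.846 to 0.997) for KAT7.

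Pooled over islands (36 with elements on the lncRNA side and 66 on the coding side), the lncRNA flank was lower than the coding flank. In head-to-head pairs of an lncRNA and a protein-coding gene, the 43 elements downstream of the lncRNA TSS had 0.670 (0.613 to 0.730) RPKM of H3K14ac and 0.632 (0.575 to 0.692) RPKM of KAT7, against 0.884 and 0.885 RPKM in the 77 elements downstream of the coding TSS. The ratios were 0.757 (0.682 to 0.840) and 0.714 (0.640 to 0.796). In the 17 islands with elements on both sides the lncRNA side was lower in 10 for H3K14ac and in 12 for KAT7. Over whole head-to-head islands, lncRNA pairs had 0.967 (0.946 to 0.989) times the H3K14ac and 0.974 (0.952 to 0.996) times the KAT7 of pairs of coding genes. In overlapping islands the ratios were 1.04 (1.00 to 1.09) and 1.04 (0.996 to 1.08), and over all bidirectional islands 0.996 (0.978 to 1.02) and 0.999 (0.980 to 1.02). In pairs with 1 Top gene, the 33 elements on the Top side had 0.898 (0.791 to 1.02) times the H3K14ac and 1.03 (0.902 to 1.19) times the KAT7 of the 26 on the partner's side, intervals that include 1.

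Having a gene marked Top went with a smaller difference at bidirectional islands than at single-TSS islands. The 124 bidirectional islands with a Top gene had 1.08 (1.05 to 1.11) times the H3K14ac and 1.05 (1.02 to 1.08) times the KAT7 of the 827 without. At single-TSS islands the same ratios were 1.28 (1.27 to 1.29) and 1.18 (1.17 to 1.19) at the same band weights. The quotient of the ratios was 0.842 (0.819 to 0.866) for H3K14ac and 0.890 (0.865 to 0.917) for KAT7. Among islands with a Top gene, bidirectional ones had 0.875 (0.854 to 0.896) times the H3K14ac and 0.895 (0.872 to 0.917) times the KAT7 of single-TSS ones, while among islands without any marked gene they had 1.03 (1.02 to 1.04) and 1.02 (1.01 to 1.03) times. Only 9 islands held 2 Top genes, and in 115 the mark was carried by 1 gene, so most islands counted here joined a Top gene to one that is not. The 9 include Hspd1/Hspe1, 4 pairs of H2A and H2B histone genes, Ndufs1/Eef1b2 (a complex I subunit and a translation elongation factor) and Mrpl18/Tcp1 (a mitochondrial ribosomal protein and a chaperonin subunit), and had 0.553 (0.512 to 0.595) RPKM of H3K14ac and 0.472 (0.434 to 0.513) RPKM of KAT7. The 12 islands with a Bottom gene were low in both marks when pooled, with 0.630 (0.570 to 0.695) times the H3K14ac and 0.746 (0.681 to 0.817) times the KAT7 of islands with no marked gene. Not each of them was low: they ranged from 0.139 to 0.732 RPKM of H3K14ac and from 0.235 to 0.563 RPKM of KAT7. At single-TSS islands the matching ratios were 0.828 (0.796 to 0.862) and 0.893 (0.860 to 0.927), and the difference from the bidirectional ratios was not tested. The 12 include Dio3os/Dio3, Wt1os/Wt1 (a transcription factor of kidney and gonad development), Il17rb/Chdh and Bhmt2/Dmgdh, both with an enzyme of choline metabolism, chosen for mention after their values were seen.

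Of 15 textbook bidirectional pairs, 9 had both TSSs in 1 bidirectional island, 5 did not (Tk1/Afmid, Trp53/Wrap53, Sars2/Mrps12, Brca1/Nbr1 and Pdcd10/Serpini1) and for Brca2/Zar1l 1 gene was not found. Hspd1/Hspe1 (chr1:55087410-55088640), whose products form the mitochondrial chaperonin, had 0.436 (0.343 to 0.546) RPKM of H3K14ac and 0.436 (0.342 to 0.550) RPKM of KAT7. Mcm4/Prkdc (chr16:15637061-15638107), a replicative helicase subunit and the catalytic subunit of DNA-dependent protein kinase, had 0.384 (0.291 to 0.498) and 0.520 (0.408 to 0.654) RPKM. Surf2/Surf1 (chr2:26916249-26916882), where Surf1 assembles cytochrome oxidase, had the highest H3K14ac of the 9 pairs, 0.568 (0.423 to 0.747) RPKM, with 0.542 RPKM of KAT7. A further 5 (Paics/Ppat of purine synthesis, the kinase gene Atm with the histone gene activator Npat, the collagens Col4a1/Col4a2, Sirt3/Psmd13 and Desi1/Xrcc6) had 0.366 to 0.431 RPKM of H3K14ac and 0.337 to 0.503 RPKM of KAT7. In each of the 9 pairs the interval of the ratio of KAT7 to H3K14ac included 1. Over all islands used it lay above 1 in 14.2% and below 1 in 7.43%, so most islands share this.

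The islands at the ends of the range, named by their interval bounds and so given as a description, were mostly pairs with a well known coding gene. Rmi1/Hnrnpk (chr13:58401244-58403342), overlapping genes of a DNA repair complex subunit and an RNA-binding protein marked Top, had 372 H3K14ac and 172 KAT7 reads, 1.25 (1.13 to 1.38) and 0.611 (0.523 to 0.710) RPKM, which were 3.06 and 1.32 times the single-TSS medians of its band. The island of Spry4, an inhibitor of receptor tyrosine kinase signalling marked Top, with a partner listed by identifier, was the highest in both columns, with 1.31 (1.12 to 1.53) and 1.36 (1.16 to 1.59) RPKM. Gm6297/Dnaja1 (chr4:40722233-40723250), where Dnaja1 is a co-chaperone of heat shock proteins, had 0.971 RPKM of H3K14ac and 0.462 RPKM of KAT7. Dand5/Gadd45gip1 had 1.02 and 0.507 RPKM, 5430405H02Rik/Rab5if 0.946 and 0.641 RPKM, and Actg1/0610009L18Rik, with the gamma-actin gene, 0.885 and 0.622 RPKM.

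The islands with the highest lower bound of KAT7 were mostly others. Rida/Pop1 (chr15:34495235-34495543), where Pop1 is a subunit of RNase P, had 48 KAT7 and 22 H3K14ac reads, 1.16 (0.857 to 1.54) and 0.504 (0.316 to 0.763) RPKM. Maip1/Tyw5 had 0.906 RPKM of KAT7 and 0.668 RPKM of H3K14ac, Gm15972/Mapre2, with a microtubule end-binding protein, 1.00 and 0.605 RPKM, 4930429B21Rik/Zmat3 0.929 and 0.865 RPKM, and the island of the zinc finger repressor gene Klf3 0.841 and 0.805 RPKM. Maip1/Tyw5, 4930429B21Rik/Zmat3 and the Klf3 island hold overlapping genes. At 4930429B21Rik/Zmat3 and the Klf3 island H3K14ac was high as well, at 1.85 and 1.94 times the single-TSS median of the band.

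At the low end, Srrd/Hps4 (chr5:112342859-112343309), where Hps4 acts in the making of lysosome-related organelles, had 5 H3K14ac and 27 KAT7 reads, 0.0784 (0.0255 to 0.183) and 0.447 (0.295 to 0.651) RPKM. Its ratio of KAT7 to H3K14ac, 5.71 (2.17 to 19.0), had the highest lower bound of all 951. Igf2os/Igf2 (chr7:142658948-142661318), at an imprinted growth factor gene, had 0.155 (0.116 to 0.203) RPKM of H3K14ac and 0.340 RPKM of KAT7. The islands of Usf2, a helix-loop-helix transcription factor, and of Tmed7/Eif1a had 0.145 and 0.0978 RPKM of H3K14ac, and 0.338 and 0.281 RPKM of KAT7. Xab2/Pet100 (chr8:3621239-3621646), where Xab2 acts in splicing and transcription-coupled repair, had 6 reads in each column, 0.104 and 0.110 RPKM. Kcnab2/Nphp4 had 0.187 RPKM of KAT7 and 0.390 RPKM of H3K14ac, the island of Ankrd13b had 0.189 RPKM of each, and Dio3os/Dio3, at the imprinted gene of a deiodinase that inactivates thyroid hormone, had 0.235 RPKM of KAT7 and 0.162 RPKM of H3K14ac.

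Besides Srrd/Hps4, the ratio of KAT7 to H3K14ac was highest by lower bound at Dhrs1/Nop9 (3.79, 1.96 to 7.89), where Nop9 acts in ribosome assembly, at Thap4/Atg4b (2.66, 1.94 to 3.69), where Atg4b is a protease of autophagy, and at Cbln1/Gm2694 (2.85, 1.92 to 4.30), where Cbln1 organises synapses. It was lowest by upper bound at Lrrc75a/Mmgt2 (0.327, 0.202 to 0.513), 4930581F22Rik/St3gal4 (0.315, 0.160 to 0.582), H2bu1-ps/H2aw (0.412, 0.286 to 0.584) and 5031425E22Rik/Kmt2e (0.464, 0.367 to 0.584). Both sets hold pairs of coding genes as well as pairs with a non-coding partner.

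**Figure D5:**
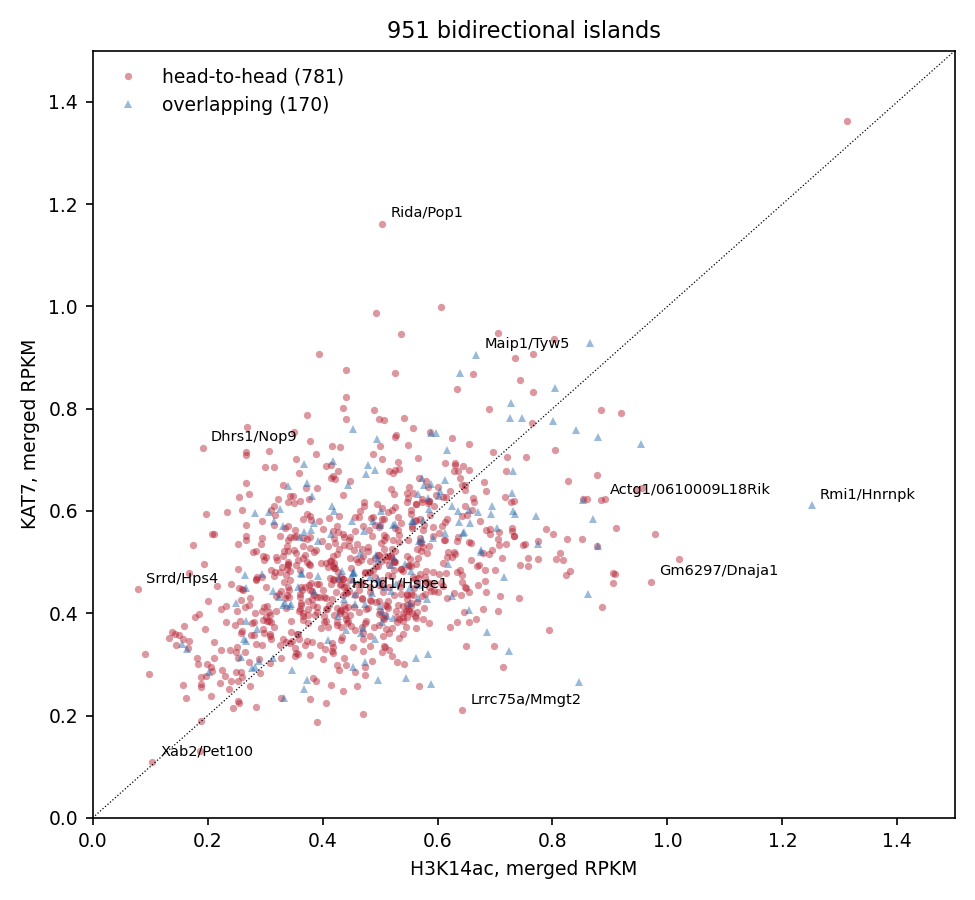
Merged KAT7 (y axis, RPKM) against merged H3K14ac (x axis, RPKM) of the 951 bidirectional islands; red circles are 781 head-to-head and blue triangles 170 overlapping islands, the dotted line marks equal values, and some islands named in the text are labelled. Rmi1/Hnrnpk and Gm6297/Dnaja1 stand far to the right of the line, Rida/Pop1 and Srrd/Hps4 to its left.

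Gene families are given by how many of their members started in a bidirectional island and by the levels there, and differences between families were not tested. Among 59 DNA repair genes 17 (28.8%) did, and 37 started in a single-TSS island. Of all 19903 autosomal genes 1909 (9.59%) started in a bidirectional island and 7926 in a single-TSS island. Shares among genes that start in CpG islands were not compared. The bidirectional islands of DNA repair genes had medians of 0.414 RPKM of H3K14ac and 0.484 RPKM of KAT7, against 0.472 and 0.483 RPKM over all 951 and 0.505 and 0.512 RPKM at single-TSS islands of the same list, and lay above the single-TSS median of their length band in 7 of 17 for H3K14ac and 8 for KAT7. Of all islands used 50.7% did so for H3K14ac and 50.3% for KAT7, and of the bidirectional ones 536 and 496 of 951. Xpc/Lsm3, with a damage sensor of nucleotide excision repair, had 0.622 RPKM of H3K14ac and 0.373 RPKM of KAT7, and Rpa1/Smyd4, with a subunit of the single-strand binding protein, 0.316 and 0.610 RPKM. Rpph1/Parp2, where the RNA component of RNase P adjoins a poly(ADP-ribose) polymerase, had 0.143 and 0.360 RPKM.

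Mitochondrial ribosomal protein genes started there in 22 of 78 cases (28.2%), with medians of 0.539 RPKM of H3K14ac and 0.543 RPKM of KAT7, against 0.454 and 0.557 RPKM at the list's single-TSS islands. H3K14ac lay above the band median in 16 of the 22 islands and KAT7 in 14. Rab6a/Mrpl48 had 0.879 and 0.745 RPKM, Eme2/Mrps34 0.735 and 0.900 RPKM, and Mrpl50/Zfp189 0.255 and 0.449 RPKM. Cytosolic ribosomal protein genes did so in 9 of 79 cases (11.4%), near the share of all autosomal genes, and 56 started in a single-TSS island. Those 9 islands had medians of 0.655 and 0.535 RPKM, against 0.708 and 0.605 RPKM at the list's single-TSS islands, with H3K14ac above the band median in 8. Rpl9/Lias, where Lias makes lipoic acid, had 0.767 and 0.832 RPKM, and Rps28/Ndufa7 was the exception with 0.197 (0.0791 to 0.405) RPKM of H3K14ac, from 7 reads, and 0.594 RPKM of KAT7.

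Replication-dependent histone genes were paired with each other: 17 of 62 (27.4%) started in 9 bidirectional islands, all head to head, and 8 of the 9 join an H2A to an H2B gene. H3K14ac lay above the band median in all 9 and KAT7 in 4, with medians of 0.585 and 0.460 RPKM, against 0.614 and 0.571 RPKM at the list's single-TSS islands. H2bc13/H2ac13 had the highest H3K14ac, 0.691 RPKM, with 0.556 RPKM of KAT7, and H2ac22/H2bc22 had 0.650 and 0.336 RPKM. Histone and ribosomal protein genes have near-identical copies, so reads there may be split or misplaced, and their values are uncertain. Chaperonins and heat shock partners did so in 7 of 17 cases (41.2%), in 6 islands with medians of 0.559 and 0.470 RPKM, against 0.607 and 0.512 RPKM at the list's single-TSS islands; Cct5/Atpsckmt had 0.663 and 0.618 RPKM and Psph/Cct6a 0.418 and 0.560 RPKM. Among tRNA synthetase genes 7 of 34 (20.6%) did, including both genes of Hars/Hars2, whose island had 0.557 and 0.763 RPKM, and among proteasome genes 5 of 47 (10.6%), including the assembly chaperone Psmg2. None of 15 neural stem and radial glia genes started in a bidirectional island, and 8 started in a single-TSS island. These lists were chosen, not drawn, and the shares are descriptions.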

How the data were processed

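ChIP-seq was done on mouse neural stem and progenitor cells. The authors deposited 1 table of 240814 regions that holds, per the file headers, a merged read count and a merged RPKM for each antibody. Bowtie2, SAMtools, Picard, deepTools and featureCounts are named, without versions or order, in the submitters' processing notes, as is the build mm10. The deposited RPKM equalled the count per kilobase scaled to a total of 141734087 (H3K14ac) or 134111848 (KAT7) reads in 100% of regions, within a relative tolerance of 1e-06. What these totals count is not stated. Which libraries and genotypes were merged is not known, so the tests that need replicates could not be run.

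Islands with a mean of both RPKM values under 0.1, or either above 5, were left out, as were chromosomes X and Y. Short elements had no low-value filter, and elements sharing bases with another of their class were left out. Levels are summed counts over summed length, with exact Poisson intervals. Ratios carry exact Clopper-Pearson intervals, or log-scale counting intervals where length bands (up to 400, over 400 to 700, to 1200, to 2000 and above) were weighted by the number of bidirectional islands (of overlapping islands, where these were compared with head-to-head ones). Symbols came from the RefSeq gene table by identifier, for 1860 of 1909 genes, and promoter windows were matched where a RefSeq start lay within 50 bases, for 1346. Python 3.11.15, pandas 2.3.3 and SciPy 1.17.1 were used, and the ratios were tested on simulated data. Islands are named by bounds of their intervals: the 6 highest and 4 lowest of each antibody, the 4 highest and 4 lowest ratios of KAT7 to H3K14ac, and the textbook pairs, except for a few islands whose values are not reported here. The members, lists and named pairs were chosen with earlier results of these data known. The alternatives are given in the closing section.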

Additional observations from a re-analysis of the deposited data

How the results depend on the processing

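Of 182 values recomputed under other settings over 19 results, 141 stayed within the counting interval of the value reported, 45 of them because the setting touched none of the islands or weights used, 36 moved outside it and 5 changed direction. A change of direction was counted only where the reported interval excluded 1. Other values that crossed 1 are counted among the 141 or the 36. H3K14ac at bidirectional over single-TSS islands, 1.02, was 0.999 with head-to-head islands alone and 0.782 against the 22 islands with 2 or more TSSs on 1 strand; it was 1.04 with bands weighted by summed length, 1.04 with every TSS at least 50 bases inside, 1.03 in islands without a marked gene and 1.05 from medians. The same ratio for KAT7, 1.01, was 0.999 with head-to-head islands alone, 1.02 in islands without a marked gene and 0.837 against the 22 islands. For KAT7 to H3K14ac, 0.992, the values were 0.970 by summed length, 0.975 with TSSs inside, 0.965 from medians and 1.07 against the 22 islands. In single bands H3K14ac changed direction at 1 to 400 bases with TSSs inside (1.04), at over 700 to 1200 bases against the 22 islands (0.704) and above 2000 bases with head-to-head islands alone (0.994).

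Between over downstream of head-to-head TSSs, H3K14ac (0.354) was 0.459 in Enh and 0.395 in IS elements, 0.412 with elements of at most 250 bases, 0.298 from medians and, added after the data were seen, 0.378 with the low-value filter. KAT7 (0.635) was 0.745 in Enh elements, 0.671 with elements of at most 250 bases and 0.673 with the filter. Overlapping over head-to-head islands was 1.10 for KAT7 from medians and, added after the data were seen, 1.06 for H3K14ac in the 3 middle bands. The differences between islands with and without a Top gene stayed within their intervals in each setting run. The causes of these shifts were not tested.

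No paired analysis was possible because the columns are merged over libraries, and leaving out a replicate could not be run for the same reason. Depth limits single islands most: at a median of 57 H3K14ac reads per island a value has a wide interval, and the 45 elements between overlapping TSSs and the 12 islands with a Bottom gene are few.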

Other observations

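Wider regions around the same genes gave other ratios. In windows of 2001 bases around plus-strand TSSs, bidirectional genes had 0.412 (0.410 to 0.415) RPKM of H3K14ac and 0.465 (0.462 to 0.467) RPKM of KAT7, against 0.367 and 0.414 RPKM for genes of single-TSS islands, 1.12 (1.12 to 1.13) times in both columns. Such a window also holds the partner's start, and minus-strand windows were not used because the table gives them a negative length. Over the 1301 gene bodies of head-to-head islands the ratios to single-TSS genes were 0.990 (0.989 to 0.992) for H3K14ac and 1.02 (1.02 to 1.02) for KAT7. Bodies of overlapping genes share bases with each other and were left out.

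The 22 islands with 2 or more TSSs on 1 strand had 1.24 (1.18 to 1.31) times the H3K14ac and 1.18 (1.12 to 1.24) times the KAT7 of single-TSS islands at equal lengths. Elements outside overlapping TSSs, up to 1000 bases upstream of the nearer one, had 0.674 (0.641 to 0.708) RPKM of H3K14ac and 0.743 (0.708 to 0.780) RPKM of KAT7. Elements 250 to 1000 bases upstream of a single TSS had 0.563 and 0.624 RPKM, which gives ratios of 1.20 (1.14 to 1.26) and 1.19 (1.13 to 1.25). The positions are unlike, with median distances of 322 and 491 bases. The DNA outside overlapping TSSs is also downstream of the partner's TSS.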
